A study of Homo sapiens with 10 samples.

Results

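The cytosolic ribosomal protein genes encode the proteins that, with ribosomal RNA, make up the ribosome of the cytoplasm. A row was taken where its identifier belonged to a protein-coding symbol of RPL or RPS followed by a digit, or to RPSA, RPLP0, RPLP1 or RPLP2. The RPS6K kinases and RPS19BP1, which act on or bind a ribosomal protein, were left out, and a mean of at least 1 count per 1000000 counts (CPM) over the 10 libraries was asked. This gave 86 of the 21174 rows: 77 genes for ribosomal proteins (46 of the large subunit and 31 of the small), 6 paralogs (RPL7L1, RPL22L1, RPL26L1, RPL36AL, RPL39L and RPS27L) and 3 readthrough transcripts that join a ribosomal protein gene to its neighbour. Another 4 symbols fitted the name rule and had 0 counts in every library, among them RPL3L and RPL10L. No row lay near the limit, since the lowest row taken, RPL39, had a mean of 16.6 CPM by total counts. FAU and RACK1, which also supply ribosomal proteins, have other symbols and are given with the pathway genes.

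The study measured RNA by sequencing in clones of U2932, a cell line established from diffuse large B cell lymphoma, in which mature B lymphocytes grow without control. It had 5 CREBBP+/+ libraries and 5 CREBBP+/- libraries, and both groups were grown untreated in the same medium with 20% serum. CREBBP is a histone acetyltransferase that is often mutated in this lymphoma. How 1 copy was altered, and how the clones were made, is not given in the sources used here, and nothing says that the libraries of a group came from separate cultures, so a p-value speaks of the scatter among these 10 libraries and no more. Libraries are called by their column names, WT_1 to WT_5 and Het_6 to Het_10; the labels number the CREBBP+/- samples differently, so a Het column is known by its group only. Over all genes the libraries fell into 3 sets that cut across genotype. Set A held WT_1, WT_2 and Het_8, set B held WT_3, WT_4, WT_5, Het_6 and Het_7, and set C held Het_9 and Het_10. The sets come from expression in these same libraries, so differences between them are described and not tested.

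Each ribosome carries a single copy of nearly every one of these proteins, and growing cells therefore make their messages in large and balanced amounts. Most of the messages open with a terminal oligopyrimidine (TOP) tract, a C followed by a run of C and T, through which the kinase MTOR and the binding protein LARP1 set their translation and stability. MYC, a transcription factor often raised in B cell lymphoma, is known to drive the genes of ribosome production. Free RPL5 and RPL11, which reach the large subunit with the smallest ribosomal RNA, can bind the ubiquitin ligase MDM2 when assembly fails.

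Start regions are shown first because the TOP tract is the sequence feature that these genes are known to share. Of the 86 members, 69 had an entry in the RefSeq promoter table (GRCh38.p14), 62 of them ribosomal proteins and 5 of them paralogs. Only the first entry listed for a member was used, so a run at another start of the same gene would be missed. Each stretch has 30 bases around the annotated start, written 5′ to 3′. Capitals mark the C/T run, read onward from a C no more than 5 bases from the start and taken at its longest. Where C or T also stands before that C, as in RPL13A and RPL36AL, the unbroken tract reaches farther back than the capitals. The first 6 belong to members whose levels differed much or, for RPS13, hardly at all between the library sets, and RPS29 is shown as one with no such run of 5 or more:
RPS16 (chr19:39435930-39435959, minus strand): ccctagCTTTCCTTTTCCggttgcggcgcc
RPL31 (chr2:101002279-101002308, plus strand): ccttcgcgCTCTTCCTTTCCaacttggacg
RPS24 (chr10:78033853-78033882, plus strand): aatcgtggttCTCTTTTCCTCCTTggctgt
RPL3 (chr22:39319604-39319633, minus strand): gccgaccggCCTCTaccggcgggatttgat
RPL13A (chr19:49487598-49487627, plus strand): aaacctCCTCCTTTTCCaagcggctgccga
RPS13 (chr11:17077648-17077677, minus strand): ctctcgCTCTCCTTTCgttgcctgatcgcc
RPS29 (chr14:49598691-49598720, minus strand): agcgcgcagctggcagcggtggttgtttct

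The next 9 pair ribosomal proteins with their paralogs, to show which paralogs carry the run. No entry was found for RPL39L:
RPL22 (chr1:6199576-6199605, minus strand): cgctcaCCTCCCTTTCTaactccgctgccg
RPL22L1 (chr3:170870176-170870205, minus strand): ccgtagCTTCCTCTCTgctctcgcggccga
RPL36A (chrX:101391001-101391030, plus strand): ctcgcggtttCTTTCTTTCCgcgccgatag
RPL36AL (chr14:49620607-49620636, minus strand): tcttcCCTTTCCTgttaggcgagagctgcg
RPS27 (chr1:153990752-153990781, plus strand): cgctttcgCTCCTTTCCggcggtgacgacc
RPS27L (chr15:63157458-63157487, minus strand): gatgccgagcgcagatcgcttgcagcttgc
RPL26 (chr17:8383174-8383203, minus strand): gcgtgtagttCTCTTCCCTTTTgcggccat
RPL26L1 (chr5:172958719-172958748, plus strand): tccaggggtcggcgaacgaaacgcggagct
RPL39 (chrX:119791611-119791640, minus strand): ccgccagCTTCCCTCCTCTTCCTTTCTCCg

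A run of at least 5 bases was found in 50 of the 62 ribosomal protein genes (80.6%), in 2 of the 5 paralogs (40%, RPL22L1 and RPL36AL) and in 21.1% of all 35116 promoter entries. Here and below, each member counts by its first entry, while all promoter entries were counted as listed, where a gene may have several. The longest run shown, in RPL39, had 22 bases. In the whole window of 300 bases, searched on both strands, CCGGAAG, the core bound by ETS factors, was present in 33.9% of the ribosomal protein genes and 10.3% of all promoters. AAGATGGC, a YY1 type motif, was present in 9.68% against 2.89%, and the E-box CACGTG, the core letters for MYC and MAX, in 4.84% against 7.26%. GGGCGG (the GC box) was present in 54.8% against 45% and TATAAA (the TATA box) in 8.06% against 11.5%. A match describes the letters and is not a measured binding site.

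The palindrome made of TCTCG and its reverse complement CGAGA stood in 4 of the 62 ribosomal protein genes (6.45%) and in 0.424% of all promoters. Its 4 upstream stretches of 150 bases follow, ending at the base before the start, with every searched motif in capitals:
RPL17 (chr18:49492466-49492615, minus strand): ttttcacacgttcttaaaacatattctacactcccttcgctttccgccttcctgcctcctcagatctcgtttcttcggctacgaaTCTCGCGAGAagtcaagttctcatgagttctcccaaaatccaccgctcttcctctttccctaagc
RPL26 (chr17:8383194-8383343, minus strand): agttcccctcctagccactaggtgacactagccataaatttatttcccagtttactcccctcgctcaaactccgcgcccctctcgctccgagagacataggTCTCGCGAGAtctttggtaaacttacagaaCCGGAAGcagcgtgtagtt
RPS19 (chr19:41860105-41860254, plus strand): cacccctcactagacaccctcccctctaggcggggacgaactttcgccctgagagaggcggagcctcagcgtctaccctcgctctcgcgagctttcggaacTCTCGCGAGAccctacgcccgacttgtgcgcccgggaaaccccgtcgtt
RPS6 (chr9:19380237-19380386, minus strand): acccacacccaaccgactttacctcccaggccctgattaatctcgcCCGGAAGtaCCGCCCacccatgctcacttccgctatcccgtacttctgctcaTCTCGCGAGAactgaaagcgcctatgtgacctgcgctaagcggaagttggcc

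Libraries held 10615977 (Het_9) to 23020694 (Het_6) counts on genes. CREBBP itself averaged 115 ± 13.5 CPM where both copies were intact and 69.6 ± 10.2 CPM in the heterozygous libraries (SD, n = 5 each), with ranges of 103 to 136 and 56.8 to 80.7 that did not overlap. All 6 B cell markers listed were present, with summed levels of 1909 to 2196 CPM in set A, 3063 to 3523 CPM in set B and 3106 to 3208 CPM in set C. T cell markers summed to at most 0.596 CPM, with CD3D and CD2 at 0, and myeloid markers to at most 1.41 CPM. Erythroid markers reached at most 0.0523 CPM, with HBB at 0, and stromal markers at most 2.35 CPM, in set C, with COL1A2 at 0. Of the epithelial markers, EPCAM carried nearly all the sum, which was 1.57 to 13.6 CPM in set A, 20.2 to 26.5 CPM in set B and 23.5 CPM in both libraries of set C.

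Between 5.52% and 9.32% of all gene counts lay on the 86 member rows. In CREBBP+/+ libraries the share was 8.52% in WT_1, 9.32% in WT_2, 6.28% in WT_3, 6.03% in WT_4 and 5.70% in WT_5. In CREBBP+/- libraries it was 6.04% in Het_6, 6.18% in Het_7, 8.93% in Het_8, 5.58% in Het_9 and 5.52% in Het_10. The 3 libraries of set A were above the other 7 in both genotypes, and the genotype groups overlapped. Averaged by genotype it came to 7.17% ± 1.64 for CREBBP+/+ and 6.45% ± 1.42 for CREBBP+/- (SD, n = 5 each). By set it was 8.93% ± 0.403 in A (n = 3), 6.05% ± 0.217 in B (n = 5) and 5.55% ± 0.0442 in C (n = 2), so A stood 1.48 times above B.

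Within sets A and B the genotypes were close in member share, with Het_8 the only CREBBP+/- library of set A. The sets group libraries alike in expression, so some closeness within a set is built in and says little of genotype. Het_8 lay 0.0118 percentage points above the mean of WT_1 and WT_2, and Het_6 and Het_7 lay 0.108 points above the mean of WT_3, WT_4 and WT_5. Counts of the mitochondrial genome took 7.85% to 8.51% of CREBBP+/+ and 8.89% to 10.2% of CREBBP+/- libraries. With those counts left out of the total, Het_8 lay 0.206 points above the mean of WT_1 and WT_2, and Het_6 and Het_7 lay 0.214 points above that of WT_3, WT_4 and WT_5. On that base the member share of set A was 9.76% ± 0.460 and that of set B 6.63% ± 0.258 (SD). The balance of the subunits moved little: large subunit genes took 1.57 times the counts of small subunit genes in sets A and B alike and 1.49 times in set C. In bulk RNA, fewer cells of a type and less RNA per cell cannot be told apart.

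**Figure D1:**
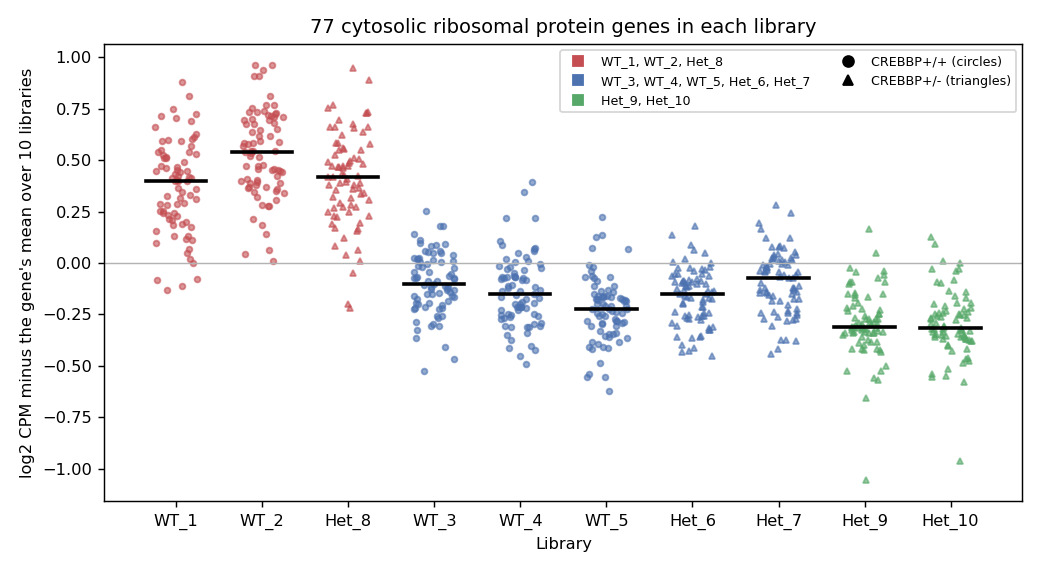
Log2 CPM of each of the 77 ribosomal protein genes minus that gene's mean over the 10 libraries, one column of points per library, with the black bar at the median. Circles are CREBBP+/+ and triangles CREBBP+/- libraries; the bars of WT_1, WT_2 and Het_8 lie above 0 and those of the other 7 libraries below it.

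Divided by coding length, the 77 ribosomal protein genes had a median level of 1527 CPM per kilobase, and 76 of them lay between 631 and 4524. The highest were RPL41, whose product is the shortest of the ribosomal proteins, at 4524, and RPL13A at 4275 CPM per kilobase. Coding length leaves out the untranslated parts of a message, which reads also cover, so this measure favours genes with short coding parts. RPL41, with 75 coding bases, had a mean of only 339 CPM, while RPL13A had 2604 CPM. Among other high members, RPL28, RPS27 and RPS18 were at 2994, 2920 and 2768 CPM per kilobase. At the low end stood RPL34 at 916, RPL31 at 830 and RPL22, which in the ribosome sits at the surface of the large subunit, at 631. RPL39, a small protein of the tunnel through which the new chain leaves, was listed far below the rest at 109 CPM per kilobase. Ribosomal protein genes have many processed pseudogenes, and reads that fit several places may have been lost or split, so levels per gene are less certain than differences between libraries.

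The 3 readthrough rows cannot be told apart from the ribosomal protein gene they contain. RPS10-NUDT3 held 102% to 104% of the counts of RPS10, RPL36A-HNRNPH2 99.0% to 106% of those of RPL36A, and RPL17-C18orf32 97.5% to 98.8% of those of RPL17. These rows are among the 86 in every count, so RPS10, RPL36A and RPL17 are each counted again through them. Without these 3 rows the member share was 8.73% ± 0.395 in set A and 5.90% ± 0.209 in set B (SD).

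Between the genotypes, no member passed the test. With edgeR's quasi-likelihood test and Benjamini-Hochberg adjustment at 0.05, 0 of 86 members and 0 of all 11961 genes tested (0%) were called. At an unadjusted p under 0.05 there was 1 member (1.16%, RPL8) against 4.98% of all genes. RPL8 was lower in CREBBP+/-, as were 2.6% of all genes at that p, and 0 members were higher, against 2.38%. DESeq2 called 0 members and 33 of the 16175 genes with any count (0.204%). Any gene left without an adjusted p by DESeq2 is in that total as not called, so its base differs from edgeR's. With limma-voom, 0 members and 0 of 11961 genes (0%) were called. No member had genotype groups that did not overlap, against 0.594% of all genes with CREBBP+/- lower and 0.426% with it higher. The median log2 fold change of CREBBP+/- over CREBBP+/+ was -0.17 over the members and -0.01 over all genes, with 80 of 86 members (77 of 83 without the readthrough rows) and 52.4% of all genes below 0. Member values ran from -0.42 (RPS29) to 0.07 (RPL7L1).

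Set A, where the members were highest, supplied 2 of the 5 CREBBP+/+ libraries and 1 of the 5 CREBBP+/- libraries. With the sets as a covariate the median over members was 0.02, and 36 of 86 were below 0. Set C holds no CREBBP+/+ library, so that fit takes the genotype difference from sets A and B alone. Its covariate comes from expression in these same libraries, so its p-values, here and below, are descriptive only. In that fit edgeR called 0 members and 0 of all genes (0%), with a lowest adjusted p of 0.168 among members, and 7 members (8.14%) against 12.7% of all genes had an unadjusted p under 0.05. The median was -0.31 without Het_8, -0.05 without WT_2 and -0.04 without Het_9 and Het_10. Within set A, Het_8 had a median log2 difference of -0.05 from WT_1 and WT_2, and within set B, Het_6 and Het_7 had one of 0.05 from WT_3, WT_4 and WT_5.

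RPL8, which lines the peptidyl transferase centre of the large subunit, had the smallest p. Its levels were 1528, 1640, 1346, 1778 and 1477 CPM in WT_1 to WT_5 and 1166, 1288, 1389, 1008 and 1092 CPM in Het_6 to Het_10. Het_8 alone exceeded the lowest CREBBP+/+ library, WT_3, so the groups overlapped by 1 library. The means were 1554 ± 164 and 1189 ± 152 CPM (SD, n = 5 each), 1.31-fold higher in CREBBP+/+. The log2 fold change was -0.39 (SE 0.11, edgeR adjusted p = 0.842) and -0.27 with the sets as a covariate (edgeR adjusted p = 0.309). The 71 other genes tested within 5 Mb of RPL8 on chromosome 8 had a median log2 fold change of -0.31 between the genotypes.

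RPL13, a large subunit protein, had the same fold change with a wider error. Its levels were 1282, 1234, 778, 800 and 842 CPM in WT_1 to WT_5 and 618, 654, 988, 722 and 790 CPM in Het_6 to Het_10. Both groups held a high library of set A, and within sets A and B the CREBBP+/- libraries were the lower ones. The log2 fold change was -0.39 (SE 0.19, edgeR adjusted p = 0.977), and -0.35 with the sets as a covariate (edgeR adjusted p = 0.168), the lowest adjusted p of any member in that fit.

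Other members with small p values were RPL30 at -0.26 (SE 0.13), RPS21 at -0.29 (SE 0.14), RPS20 at -0.18 (SE 0.10), RPS28 at -0.30 (SE 0.17) and RPL10, needed for the joining of subunits, at -0.25 (SE 0.16). RPL30 and RPS20, like RPL8, lie on chromosome 8. The 6 members above 0 were RPL7L1 at 0.07, RPL39L at 0.06, RPL21 at 0.05, RPL7 at 0.03, RPS13 at 0.01 and RPL35 at 0.01. Each of these was within 1 SE of 0, and all but RPL7L1 changed sign under some other setting. RPS6, the protein phosphorylated by S6 kinases, was at -0.01 (SE 0.18), and RPS19, the gene most often mutated in Diamond-Blackfan anaemia, at -0.24 (SE 0.30). RPL5 was at -0.16 (SE 0.27) and RPL11 at -0.17 (SE 0.25). The stalk proteins RPLP0, RPLP1 and RPLP2, which recruit elongation factors, were at -0.31 (SE 0.23), -0.33 (SE 0.23) and -0.24 (SE 0.18).

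**Figure D2:**
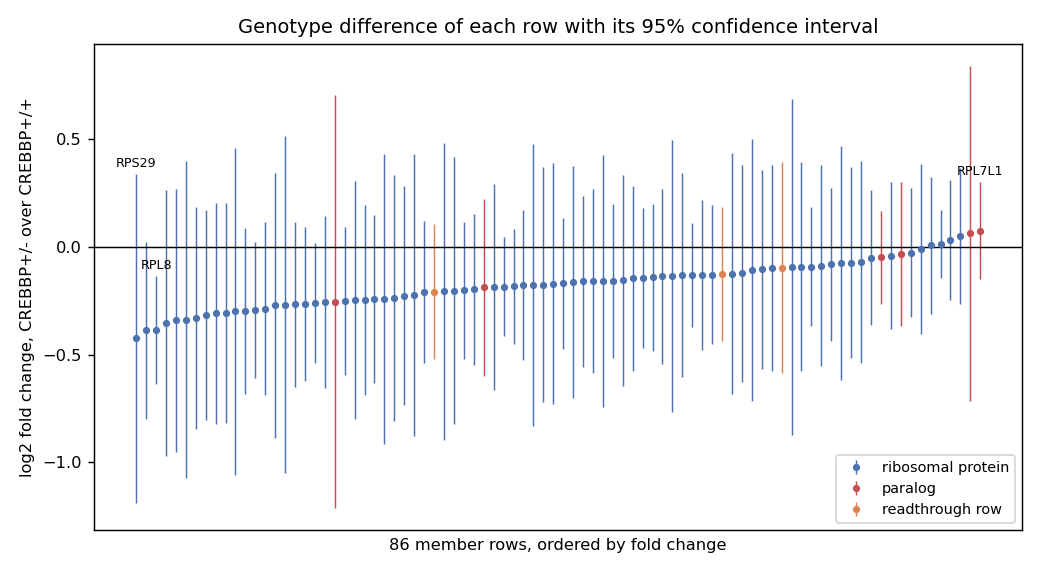
Log2 fold change of CREBBP+/- over CREBBP+/+ for the 86 rows in order of size, with bars for the 95% confidence interval; blue points are ribosomal proteins, red points paralogs and orange points readthrough rows. The interval holds 0 for 85 rows, and RPL8 is the exception.

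Between the library sets the ribosomal protein genes differed widely and mostly in one direction. Set A exceeded set B by a median of 0.54 on the log2 scale (1.46-fold) over the 86 members, against -0.01 over all genes. In 69 of 86 members (80.2%) the mean of set A was over 25% higher and its libraries did not overlap those of set B, against 18.5% of all genes. Without the readthrough rows this held for 66 of 83. The reverse held for 1 member, RPL39L, against 20.3% of all genes, the higher mean again being over 25% above the lower. Over 1.5-fold there were 39 higher members (45.3% against 10.7%) and 1 lower (RPL39L, against 12.8%), and over 2-fold 9 members (10.5% against 4.39%). All 3 libraries of set A stood above all other 7 in 71 members (82.6% against 16.1% of all genes), and below them in RPL39L alone (against 17% of all genes). Clustering the 11875 tested genes that are no members returned the same 3 sets. The 86 members are few beside that number, so this is no independent support for the sets. The summed B cell markers, by contrast, were lower in set A than in sets B and C, and their part in the member levels was not tested.

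RPS16, a small subunit protein whose tail reaches the site of the initiator transfer RNA, showed the largest difference among ribosomal protein genes. It lies on chromosome 19 (GRCh38, 39433137 to 39435949, minus strand). It was at 1316, 1410 and 1213 CPM in WT_1, WT_2 and Het_8. It was at 644, 630, 516, 563 and 561 CPM in WT_3, WT_4, WT_5, Het_6 and Het_7, and at 604 and 630 CPM in Het_9 and Het_10. The set A libraries stood apart from all others and did not sort by genotype. The mean of A was 1313 ± 98.6 CPM and that of B 583 ± 52.8 CPM (SD), 2.25-fold.

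RPL31, which lies by the exit of the peptide tunnel, was at 473, 538 and 531 CPM in WT_1, WT_2 and Het_8. In set B it was at 250, 234, 205, 235 and 236 CPM in WT_3, WT_4, WT_5, Het_6 and Het_7, and in set C at 215 and 195 CPM. Set A was 2.22-fold above set B without overlap, on chromosome 2 (101002229 to 101024032, plus strand). RPL3, a core protein of the large subunit near the peptidyl transferase centre, was at 2781, 3333 and 2886 CPM in set A. Set B ran from 1282 to 1546 CPM and set C from 1169 to 1189 CPM, so the 3 sets followed one another without overlap. RPS24 (2.16-fold), RPS29 (2.19-fold), RPS19 (2.09-fold), RPL35A (2.09-fold) and RPL36 (2.02-fold) were the other ribosomal proteins over 2-fold.

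Both subunits took part alike: the median difference of set A from set B was 0.57 over the 46 large subunit genes and 0.58 over the 31 small subunit genes on the log2 scale. RPLP0, RPLP1 and RPLP2 were 1.64-, 1.74- and 1.41-fold higher, and RPL5 and RPL11 1.87- and 1.78-fold. The genes with a C/T run at the start entry used had a median difference of 0.60 (n = 50) and those without one there 0.53 (n = 12). The 4 genes with the TCTCG palindrome upstream ranged from 0.40 (RPS6) through 0.65 (RPL17) and 0.72 (RPL26) to 1.07 (RPS19).

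A few members departed from this. RPS13, a small subunit protein, had nearly the same level everywhere: 518, 528 and 495 CPM in WT_1, WT_2 and Het_8, 517, 523, 464, 519 and 532 CPM in set B, and 529 and 498 CPM in set C. Its SD of log2 CPM over the 10 libraries, 0.06, was the smallest of the members, whose median was 0.32 against 0.27 over all genes. RPL30 was at 692, 762 and 636 CPM in set A and at 790, 928, 852, 755 and 817 CPM in set B. The ranges overlapped by WT_2 and Het_6, and the log2 difference was -0.25. RPS20 had a difference of -0.14, RPL7 of 0.07, RPL8 of 0.12 and RPL37 of 0.14. RPL7, RPL8, RPL30 and RPS20 are the 4 members on chromosome 8.

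Set C differed from set B by less and mainly downward. The median difference was -0.16 on the log2 scale (1.11-fold lower), against -0.00 over all genes, and 67 of 86 members were below 0. Past 25% and without overlap, 9 members (10.5%) were lower against 13.2% of all genes, and 1 member (RPL21) was higher against 13.9%. Both libraries of set C stood below all other 8 in 40 members (46.5%) against 8.7% of all genes, and above them in 0 against 9.78%. Past 1.5-fold there was 1 lower member (RPL37) against 6.6% of all genes and 0 higher against 7.04%. The count past 25% was near the background, and without WT_5 it was 14 members (16.3%) against 15.4% of all genes. Set C has only 2 libraries, both CREBBP+/-, so set and genotype cannot be told apart there.

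RPL37, a small zinc-binding protein of the large subunit, was the exception in size. It was at 287 and 306 CPM in Het_9 and Het_10 and between 626 and 780 CPM in the other 8 libraries, 2.31-fold lower in set C than in set B. Its gene lies on the short arm of chromosome 5 (40825262 to 40835222, minus strand), and the 24 other genes tested within 5 Mb had a median difference of -0.91, beside -1.21 for RPL37. The other members lower by that measure were RPL8, RPL12 of the stalk base, RPL30, RPL32, RPS12, RPS20, RPS26 and RPSA. RPL12 was at 400 and 441 CPM in set C and 558 to 626 CPM in set B, and RPS26, at the exit channel of the message, at 216 and 243 CPM against 275 to 337 CPM. RPL21 went the other way, at 893 and 871 CPM in set C against 666 to 757 CPM in set B. It lies on chromosome 13 (27251362 to 27256691, plus strand), where the 28 other genes tested within 5 Mb had a median of 0.41 beside its 0.34.

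Departures of single members from the common difference were set beside those of the genes around them. For each of the 77 ribosomal protein genes, the median difference of the other genes tested within 5 Mb (8 to 215 genes) was taken from the same libraries. Across the 77 genes, member and neighbour differences between sets A and B had a Pearson r of 0.746 and a Spearman rho of 0.645. Between sets C and B they had an r of 0.807 and a rho of 0.684. These are descriptions across genes that share all libraries, and genes near each other share neighbours. RPS13 had neighbours at -0.75, RPL30 at -0.68, RPL7 at -0.46, RPS20 at -0.43 and RPL37 at -0.37 in set A against B. RPS16, RPS29 and RPS24 had neighbours at 0.46, 0.44 and 0.43. Other members with large differences had neighbours near or below 0: RPL31 at 0.09, RPL36 at 0.01 and RPL13A at -0.16.

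After the neighbours' median was taken off, all 77 genes were higher in set A than in set B, with a median of 0.57 and a smallest value of 0.16 (RPL28). The SD across the 77 genes fell from 0.30 to 0.20 on the log2 scale. RPS13, level in its own counts, stood 0.75 above its neighbours, and RPL13A, at 1.15, stood the farthest above. For set C against B the SD fell from 0.21 to 0.13, and 5 of 77 genes, RPL18, RPL39, RPS13 and RPS15 among them, were above their neighbours.

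**Figure D3:**
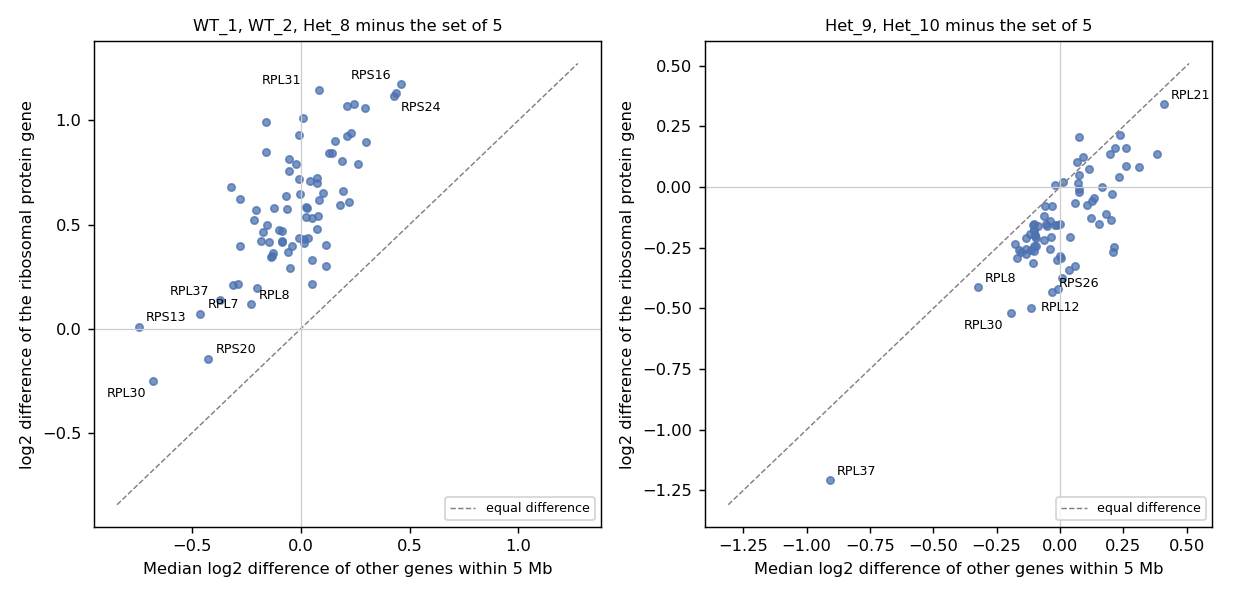
Log2 difference of each of the 77 ribosomal protein genes (vertical axis) against the median log2 difference of the other genes tested within 5 Mb (horizontal axis), for set A minus set B on the left and set C minus set B on the right. On the left every point lies above the dashed line of equal difference; on the right 5 points do, and RPL37 is at the lower left with its neighbours at -0.91.

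Per kilobase of coding length, though not in CPM itself, the paralogs were lower than every ribosomal protein gene but RPL39. They ran from 57.4 (RPL26L1) to 307 CPM per kilobase (RPL7L1), and RPL39L, at 169, exceeded RPL39 at 109. The paralogs did not move together. RPL39 lay far below the other ribosomal protein genes, and reads that fit several places may have been lost or split. The order of RPL39L and RPL39 is therefore uncertain. None passed the genotype test, as above. RPL22L1, the paralog of RPL22, showed the largest difference of set A from set B of any member. It was at 107, 112 and 78.0 CPM in WT_1, WT_2 and Het_8, at 40.5, 27.4, 24.8, 47.4 and 47.0 CPM in WT_3, WT_4, WT_5, Het_6 and Het_7, and at 46.2 and 42.6 CPM in set C. Set A stood apart at 2.64-fold over set B, and its SD of log2 CPM over the 10 libraries, 0.74, was the largest of the members. Its parent RPL22 was at 337, 355 and 384 CPM in set A and 161 to 218 CPM in set B, 1.86-fold.

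RPL39L, a paralog of RPL39 known for its high level in testis, was the only member over 25% lower in set A without overlap. It was at 17.1, 13.0 and 11.004 CPM in WT_1, WT_2 and Het_8, at 32.5, 37.6, 26.2, 33.9 and 36.3 CPM in set B, and at 24.1 and 26.7 CPM in set C. Set A was below all other libraries and 2.43-fold below set B. RPL39 moved the other way, at 24.2, 24.1 and 22.4 CPM in set A and 12.6 to 15.6 CPM elsewhere. RPL39L thus had 49.0% to 70.5% of the CPM of RPL39 in set A, 198% to 297% in set B and 160% to 211% in set C. The size of these ratios shares the uncertainty of levels per gene, which bears less on their change between sets. Other genes within 5 Mb of RPL39L were higher in set A, with a median of 0.27 beside -1.29 for RPL39L itself.

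RPS27L, a paralog of RPS27, stayed between 38.0 and 50.9 CPM, with WT_5 the highest. As RPS27 was higher in set A, the ratio of RPS27L to RPS27 was 4.02% to 4.71% in set A and 5.59% to 7.79% in set B. RPL26L1 was 1.27-fold and RPL36AL 1.46-fold higher in set A than in set B, beside 1.64-fold for RPL26 and 1.39-fold for RPL36A. RPL7L1, which acts in making the large subunit rather than as a part of it, was at 256 to 267 CPM in set A and 193 to 248 CPM in set B. RPS29 and RPL36AL lie within 5 Mb of each other on chromosome 14 and were 2.19- and 1.46-fold higher in set A.

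**Figure D4:**
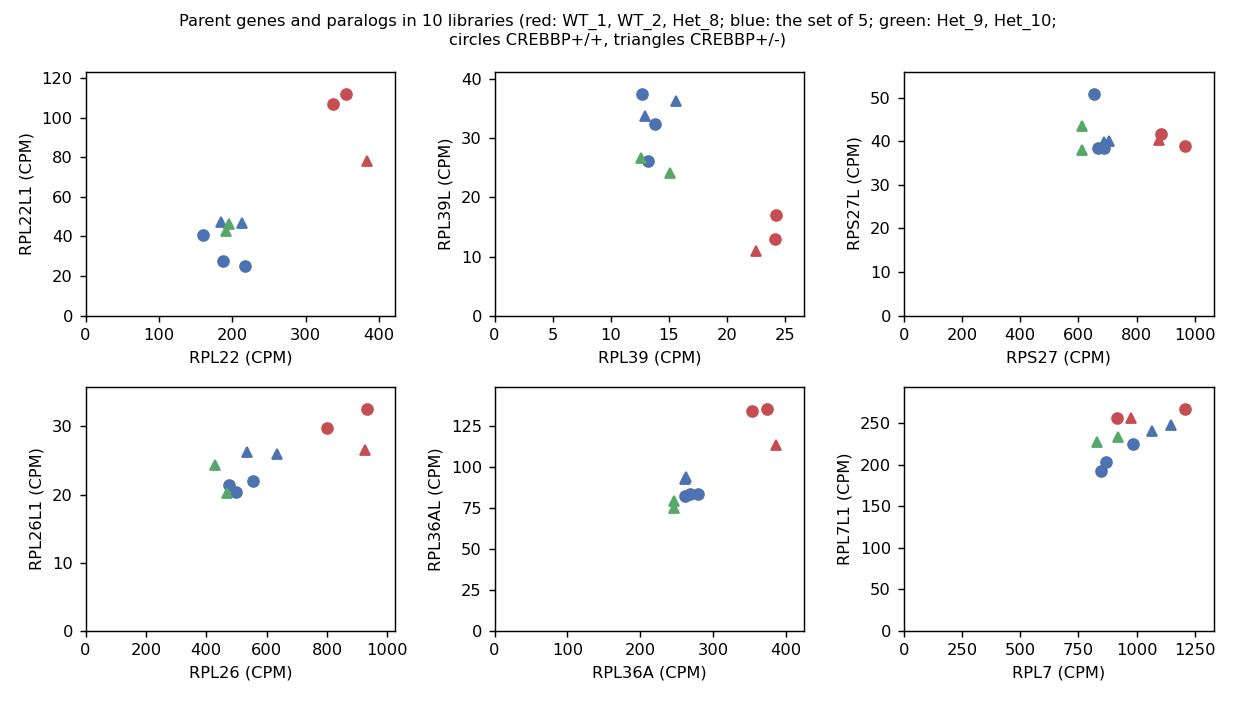
CPM of each paralog (vertical axis) against its parent gene (horizontal axis) in the 10 libraries; red is set A, blue set B and green set C, circles are CREBBP+/+ and triangles CREBBP+/-. In the panel of RPL39 and RPL39L the red points lie at the lower right, at 22.4 to 24.2 CPM of RPL39 and 11.004 to 17.1 CPM of RPL39L.

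Other genes of translation were read from 4 lists. Of 20 further messages known for a TOP tract, 19 were tested and 0 were called between genotypes, with an edgeR adjusted p of 0.842 or more. At an unadjusted p under 0.05, 2 were lower in CREBBP+/- (against 2.6% of all genes): the elongation factor subunit EEF1D at -0.31 (SE 0.09) and the poly(A) binding protein PABPC1 at -0.40 (SE 0.18). Both lie on chromosome 8, as does the third, the initiation factor subunit EIF3H at -0.22 (SE 0.11). In set A against B, 11 of the 19 were over 25% higher without overlap (against 18.5% of all genes) and 1, PABPC1, was lower (1.37-fold, against 20.3%), with a median log2 difference of 0.46. EEF1A1, which carries transfer RNA to the ribosome, was at 8604, 8676 and 8455 CPM in set A and 4586 to 5774 CPM in set B. FAU, which encodes a ribosomal protein fused to a ubiquitin-like protein, had a ratio of 1.03 of set A to set B, and RACK1 one of 1.38. In set C against B, 1 was higher (TPT1, 1.33-fold, against 13.9% of all genes) and 4 were lower (EEF1A1, EEF1D, EIF3H and PABPC1, against 13.2%).

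Of 10 host genes of small nucleolar RNAs, whose spliced transcripts also carry TOP tracts, 5 were tested and 0 were called between genotypes (edgeR adjusted p of 0.988 or more). GAS5 was at 287, 317 and 279 CPM in set A and 104 to 118 CPM in set B, 2.59-fold. SNHG5, SNHG1 and SNHG16 were 2.08-, 2.06- and 1.74-fold higher in set A without overlap, which makes 4 of the 5 with GAS5 (against 18.5% of all genes), and SNHG6, on chromosome 8, had a ratio of 0.960. None differed by over 25% without overlap in set C.

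Among 10 regulators 0 were called (lowest edgeR adjusted p 0.977). MAF1, a repressor of RNA polymerase III on chromosome 8, was at -0.30 (SE 0.13) between genotypes and alone had an unadjusted p under 0.05 (against 2.6% of all genes with a lower value). MAX, the partner of MYC, was at 0.19 (SE 0.13) and the kinase RPS6KB1 at 0.12 (SE 0.10). In set A against B, 3 of the 10 were over 25% higher (MYC, MTOR and EIF4EBP2, against 18.5% of all genes), and MAX was lower by 1.31-fold (against 20.3%). Both counts are near the background, and MTOR and EIF4EBP2 barely passed. MYC was at 140, 141 and 128 CPM in WT_1, WT_2 and Het_8, at 47.0, 29.2, 27.7, 52.3 and 49.2 CPM in set B and at 28.5 and 26.6 CPM in set C. MYC was 3.32-fold higher in A than in B without overlap, while sets B and C overlapped. Its set means stood in the same order as those of the member share, and its part in that share was not tested. In set C, 1 regulator, EIF4EBP2, was lower (1.27-fold, against 13.2% of all genes).

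The last list held 18 genes that handle free ribosomal proteins or mature the subunits, with 0 called between genotypes (edgeR adjusted p of 0.988 or more). EIF6, which keeps subunits from joining early, was at -0.12 (SE 0.07) and NOB1, which trims the small subunit's RNA, at -0.17 (SE 0.15). In set A 8 of the 18 were higher, among them LSG1 (1.66-fold), BCCIP (1.58-fold) and SBDS (1.55-fold), and 1 was lower, against 18.5% and 20.3% of all genes. In set C 5 were higher, with GRWD1, a chaperone of RPL3, at 1.59-fold and LSG1 at 1.56-fold, and 1 was lower, against 13.9% and 13.2%. MDM2, the partner of free RPL5 and RPL11, had a ratio of 1.24 in set A and 1.03 in set C to set B.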

How the data were processed

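RNA was sequenced from 10 libraries, 5 CREBBP+/+ and 5 CREBBP+/-. The authors deposited a table of read counts per gene, not normalized; per the submitters' processing notes, the build was GRCh38 and the tools were STAR, featureCounts, FastQC and DESeq2, with no roles, versions or strand setting stated. All 2541 values of at least 10000 were rounded to 4 significant digits in the deposited counts, 568 of the 860 member values among them, a change of at most 0.05%. Member counts ran from 164 to 74260, so the spread between libraries, not counting error, limits precision. Symbols came from GENCODE 44, which matched 20804 of 21174 identifiers. Genes were tested with edgeR 4.0.16 (R 4.3.3; filterByExpr with a minimum count of 10, TMM factors, robust quasi-likelihood fit, Benjamini-Hochberg adjustment over all 11961 genes tested), which left out 9213 rows and no member. CPM values use TMM library sizes, and log2 CPM a prior count of 2. Alternatives were DESeq2 1.42.0, limma-voom (limma 3.58.1), other size factors and filters, the library sets as a covariate, and leaving out libraries. Closest library pairs still differed beyond counting noise (chi-square per gene of 7.77 for Het_9 and Het_10), so none was merged. Named members were those with the smallest p in each direction, the largest differences between sets, the highest and lowest levels and SD, all paralogs, parents and readthrough rows, and a few with known roles; of each list, the 3 genes with the smallest p. RPL36, RPL35A, RPS12, RPSA, RPL17, RPL18, RPL34 and the further list genes were named after their values were seen. The members, lists and library sets were chosen with earlier results of these data known. Start regions came from RefSeq. A few genes of the rule and lists enter the counts but are not reported here by name.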

Additional observations from a re-analysis of the deposited data

Results flagged for a closer look

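In each genotype group of 5 libraries, a value was picked out where the highest or lowest library lay farther from the rest than Dixon's 95% limit allows. This was so in 15 of 98 groups looked at. Chance picks out about 1 in 20 groups, but these groups share the same libraries and hold members chosen for large differences of set A, so their number is not read against it. In 13 of the 15, Het_8 was the highest CREBBP+/- library. On the log2 CPM scale these were RPL11 at 10.5, RPL13A at 11.9, RPL22 at 8.58, RPL22L1 at 6.29, RPL31 at 9.05, RPL36A at 8.60 and its readthrough row RPL36A-HNRNPH2 at 8.58. The others were RPL5 at 10.7, RPLP1 at 10.3, RPS16 at 10.2, RPS28 at 9.05 and RPS29 at 7.91, and the share of counts on member rows at 8.93%. Het_8 is the only CREBBP+/- library of set A. The remaining 2 were WT_5, which had the lowest RPS13 among CREBBP+/+ libraries, at 8.86, and the highest RPS27L, at 5.67.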

How the results depend on the processing

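No member and no pathway gene was called between the genotypes by edgeR with other size factors, filters, a set covariate or any library left out, nor by DESeq2 or limma-voom (0 in each). The median log2 fold change over members lay between -0.31 and -0.05 with 1 library left out, and was -0.14 with total counts in place of TMM factors. The difference in share of counts lay between -1.34 and -0.180 percentage points with 1 library left out, -0.119 without Het_9 and Het_10, and -0.669 without mitochondrial counts. The mean log2 difference of set A from B was 0.50 to 0.58 and that of C from B -0.17 to -0.13 with 1 library left out, and 0.51 and -0.12 with total counts. At 1.5-fold in place of 25%, 39 members were higher in set A, and in set C 0 were higher and 1 lower; the stricter threshold itself lowers these. With 1 library left out, 65 to 72 members were higher and 1 lower in set A, and 0 to 1 higher and 8 to 14 lower in set C, with the 14 without WT_5. Without the 3 readthrough rows, an alternative chosen after seeing the data, 66 were higher in set A and 9 lower in set C. Of the members near 0 between the genotypes, RPL21 was at -0.0219 without Het_9 and Het_10, RPL39L at -0.0527 with the set covariate and RPL35 at -0.00397 with limma-voom; the cause was not tested. With 1 library left out they ran from -0.00557 to 0.154 (RPL21), -0.0275 to 0.126 (RPL7), -0.0189 to 0.0283 (RPS13), -0.102 to 0.260 (RPL39L) and -0.104 to 0.0901 (RPL35). No paired analysis was possible because the Het columns carry the numbers 6 to 10, which no CREBBP+/+ column shares, so the planned fit with a replicate block was not run.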
